A study of Mus musculus with 6 samples.

Results

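RNA-Seq levels of 10 genes that mark mesothelium were examined in mouse embryonic fibroblasts (MEFs), primary fibroblasts grown from embryos. The genes are *Wt1*, *Upk3b*, *Upk1b*, *Msln*, *Krt7*, *Krt8*, *Krt18*, *Krt19*, *Lrrn4* and *Gpm6a*, and they stand among 25039 genes that the deposited table lists. They were chosen by name as known mesothelial genes at a time when earlier results on these libraries were known, and each was represented by the RefSeq transcript selected on the highest mean normalized count. All 10 genes were found, and all 10 had reads.

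There were 3 libraries, labelled as replicates, from WT MEFs and 3 from *Anp32e*-/- MEFs, which lack the histone chaperone ANP32E. Both kinds of cells were below passage 8 and without any treatment in the labels. The methods describe both as donated primary cells from WT and *Anp32e*-/- embryos. Neither the labels nor the methods used here say how many embryos or separate cultures the libraries came from. The study asked how loss of ANP32E alters expression. For each transcript, the only value used here is the authors' mean normalized count over all 6 libraries, so every level below is an average over both genotypes, with no value per library, no SD and no test. A level cannot be assigned to WT or to *Anp32e*-/- MEFs, and reads from a single library could supply it. The authors' own comparison of the genotypes, which the same table holds, was not used.

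Mesothelium is the single layer of flattened cells that lines the pleura, the pericardium, the peritoneum and the organs within them. It arises from mesoderm, as fibroblasts do, yet it forms an epithelial sheet with an apical surface and keratin filaments. WT1 is a zinc finger transcription factor of the mesothelium, developing kidney and gonad. Uroplakins are membrane proteins best known from the lining of the bladder, mesothelin is a surface protein anchored by a lipid, and the keratins of simple epithelia form filaments as pairs of a type I and a type II chain.

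*Krt19*, a type I keratin, had the highest level of the 10 genes and *Krt8*, a type II keratin, the lowest. The mean normalized count was 7400 for *Krt19* and 26.7 for *Krt8*, and divided by transcript length the levels were 4696 and 13.6 normalized counts per kb, a ratio of 345. Of the 10 genes, 6 lay at or above 350.2 normalized counts, the median of the 19271 genes with reads. These were *Krt19*, *Krt18*, *Upk1b*, *Krt7*, *Upk3b* and *Msln*. *Wt1*, *Gpm6a*, *Lrrn4* and *Krt8* lay below it. The percentile of the 10 genes among all genes with reads ran from 32.2 to 93.2, with a median of 53.2. Among the 14243 genes whose mean reaches 10 normalized counts, which have a median of 1028, only *Krt19* and *Krt18* lay at or above the median.

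**Figure D1:**
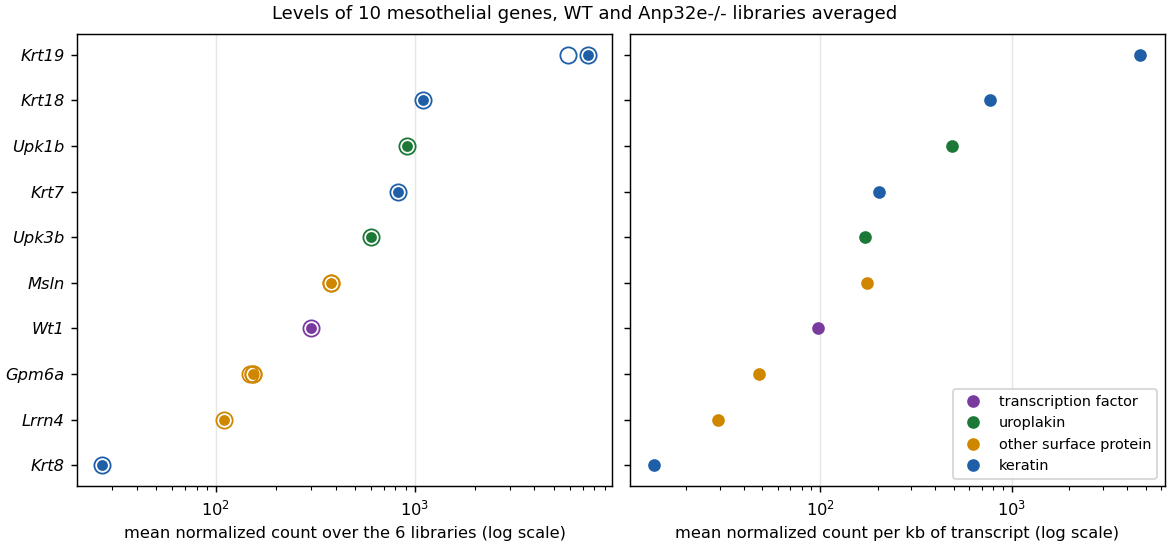
Levels of the 10 mesothelial genes, averaged by the authors over 3 WT and 3 *Anp32e*-/- libraries, as mean normalized count (left) and per kb of transcript (right), both on log axes. Filled points are the transcript that stands for the gene and open circles all its transcripts in the table. The genes run from 13.6 for *Krt8* to 4696 for *Krt19* per kb, and there are no error bars because the table holds no values per library.

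**Figure D2:**
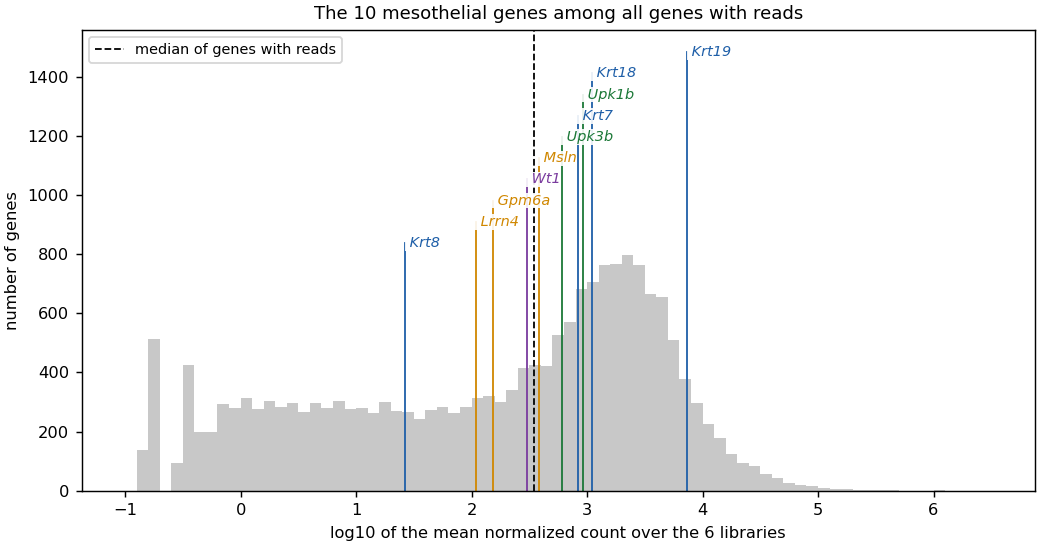
Histogram of the log10 mean normalized count of 19271 genes with reads, with the 10 mesothelial genes as coloured lines (purple for the transcription factor, green for uroplakins, orange for other surface proteins, blue for keratins; line height has no meaning) and the median of 350.2 normalized counts as a dashed line. *Krt19* lies at percentile 93.2, and *Krt8* at percentile 32.2.

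*Wt1* occupies bases 105126529 to 105173614 of chromosome 2 on the plus strand (all positions are on GRCm38), and its transcript NM_144783 has 10 exons. The authors' mean is 300.3 normalized counts, or 97.2 per kb, at percentile 48.5 of genes with reads. This corresponds to between 1638 and 2037 reads over the 6 libraries, by the least and the most that 1 read adds to a mean. No other gene in the GENCODE annotation overlapped the exons of this transcript.

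The uroplakins *Upk1b* and *Upk3b* had higher levels than *Wt1*. *Upk1b*, which encodes a tetraspanin, lies on chromosome 16 from 38773182 to 38800203 on the minus strand and has a mean of 919 normalized counts, or 485 per kb. *Upk3b*, whose product spans the membrane once, lies on chromosome 5 from 136038496 to 136044993 on the plus strand and has a mean of 605 normalized counts, or 171 per kb. Per kb, the level of *Upk1b* was 2.83 times that of *Upk3b*, and without division by length it was 1.52 times. The length used for *Upk3b*, 3530 bases, is that of a GENCODE transcript that ends at 136046487, beyond the RefSeq end. The level of *Upk3b* per kb may therefore be too low, and the ratio per kb too high. The rest of the family had low levels. *Upk1a*, the tetraspanin closest to *Upk1b*, has a mean of 19.2 normalized counts, and per kb the level of *Upk1b* was 35.9 times higher. *Upk3bl*, which starts 12.3 kb downstream of *Upk3b*, has a mean of 11.8 normalized counts. *Upk3a* has a mean of 0.159, which a single read in 1 library gives. *Upk2* is listed at 0, against 0.55 as the largest mean that 3 reads give. Together, *Upk1b* and *Upk3b* held 96.5% of the summed uroplakin level per kb.

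*Msln*, *Gpm6a* and *Lrrn4* encode other proteins of the cell surface. *Msln*, which encodes mesothelin, lies on chromosome 17 from 25748613 to 25754378 on the minus strand, with a mean of 381 normalized counts, or 176 per kb. Its neighbour *Mslnl*, 0.258 kb away, has a mean of 4.72 normalized counts, and per kb the level of *Msln* was 98 times higher. *Gpm6a*, which encodes a membrane glycoprotein of neurons and other cells, lies on chromosome 8 from 54779434 to 55060878 on the plus strand, with a mean of 153 normalized counts, or 47.7 per kb. Its relative *Gpm6b* has a level of 55.5 per kb, 1.16 times that of *Gpm6a*. *Lrrn4*, which encodes a protein with leucine-rich repeats, lies on chromosome 2 from 132866686 to 132894010 on the minus strand, with a mean of 109 normalized counts, or 29.5 per kb. Of the genes listed as its relatives, *Lrrn3* has a level of 25.3 and *Lrrn4cl* of 11 per kb, and *Lrrn1* and *Lrrn2* are listed at 0.

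The keratins spanned the whole range of the 10 genes. Both type I chains had more than either type II chain: *Krt19* had 4696 and *Krt18* 769 normalized counts per kb, against 202 for *Krt7* and 13.6 for *Krt8*. In mean normalized counts, *Krt18* has 1106 and *Krt7* has 828. The summed level of both type II chains was 0.0395 times that of both type I chains per kb, 0.1005 times without division by length, and 0.28 times per kb with *Krt19* left out. The length used for *Krt7*, 4094 bases, is that of a GENCODE transcript that ends at 101430313, beyond the RefSeq end of 101427806. The level of *Krt7* per kb, and with it the ratios per kb, may therefore be too low. *Krt20*, another keratin of simple epithelia, has a level of 6.08 per kb. Among 11 keratins of stratified epithelia, *Krt10* (50.7 per kb), *Krt13* (35) and *Krt15* (9.91) had the highest levels. *Krt6a* and *Krt6b* are listed at 0, and *Krt1* and *Krt4* have means of 0.342 and 0.507 normalized counts, under the 0.55 that 3 reads give at most. The 4 member keratins held 98.1% of the summed level of all 16 keratins, and 90.2% with *Krt19* taken from both sums.

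**Figure D3:**
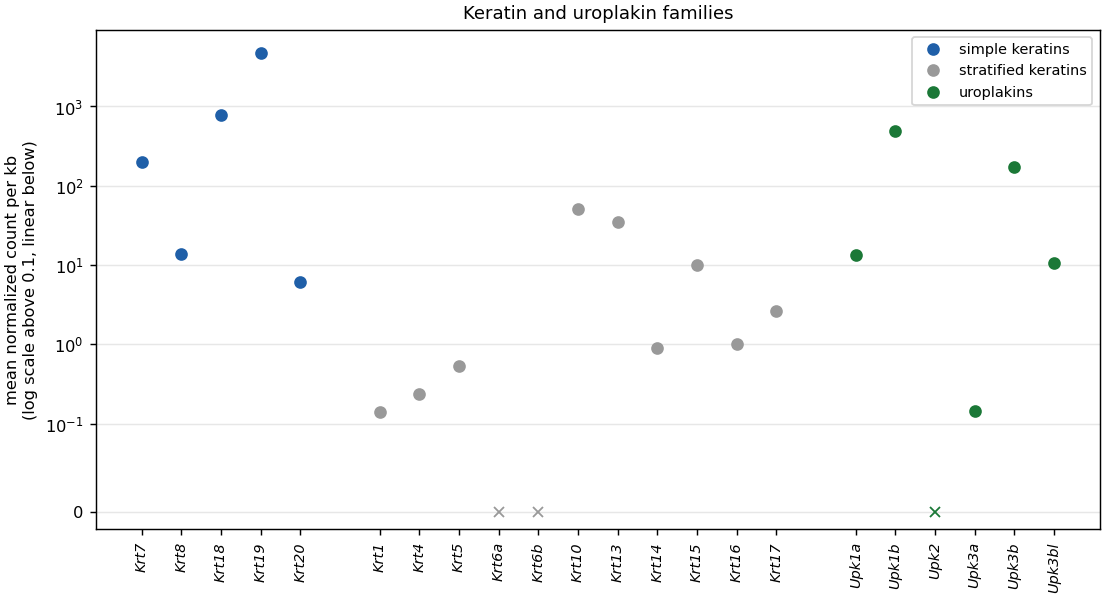
Level per kb of transcript of 5 keratins of simple epithelia (blue), 11 of stratified epithelia (grey) and 6 uroplakins (green), averaged by the authors over the 6 libraries; the axis is logarithmic above 0.1 and linear below, and crosses mark genes listed at 0. *Krt19*, *Krt18*, *Krt7*, *Upk1b* and *Upk3b* stand at 171 per kb or higher, and *Krt8* at 13.6.

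*Krt8* and *Krt18* encode chains that pair with each other in simple epithelia, and they are neighbours on chromosome 15. *Krt8* lies from 101996711 to 102004342 on the minus strand and *Krt18* from 102028216 to 102032026 on the plus strand, 23.9 kb apart. The level of *Krt18* was 56.5 times that of *Krt8* per kb. Between 146 and 180 reads over the 6 libraries stand behind the value of *Krt8*, and between 6030 and 7501 behind that of *Krt18*. *Krt8* was also the member with the most sequence in common with other genes. Of its windows of 50 bases, 29.7% occur in transcripts of other genes in GENCODE, and 26.9% in the processed pseudogene *Krt8-ps*, which was matched to no transcript in the table. For *Krt18* the share was 0.72% and for *Krt7* 0.222%, and the other 7 members shared none. An exon of the lincRNA *Gm36026* also covers 101 bases of *Krt8* on the opposite strand. The methods name default settings for featureCounts and DESeq2, without stating how reads aligned to more than 1 place were treated. The part of this overlap in the level of *Krt8* was not tested. The longest stretch that *Krt8* and *Krt8-ps* hold base for base is shown because a read that lies wholly within it fits both. It spans 299 bases of the *Krt8* coding sequence, from 628 to 926 of the GENCODE transcript.
Krt8 stretch: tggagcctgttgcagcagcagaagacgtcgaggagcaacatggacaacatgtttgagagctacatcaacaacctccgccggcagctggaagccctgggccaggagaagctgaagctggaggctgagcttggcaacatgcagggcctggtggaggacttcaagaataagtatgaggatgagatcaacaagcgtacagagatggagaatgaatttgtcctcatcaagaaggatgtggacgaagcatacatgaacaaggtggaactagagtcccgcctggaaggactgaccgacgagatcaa

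The sequences upstream of *Krt8* and *Krt18* are shown since these neighbours had such unequal levels, and that of *Krt7* as the type II chain with the higher level. RefSeq windows on GRCm38.p6 were on hand for 6 of the 10 genes, and the 250 bases before the start are printed on the strand of the gene. These motifs were searched on both strands, the GC box of SP factors (GGGCGG), the CCAAT box of NFY (CCAAT) and a TATA box (TATAAA), and they are in capitals where found. The window of *Krt7* holds the GC box at 4 places, which 32.7% of 32851 windows hold at least once. None of the 3 motifs is in the windows of *Krt8* and *Krt18*, nor in those of *Upk3b* and *Lrrn4*. The window of *Lrrn4* lies inside the span that RefSeq gives the gene, and the start it is built on is 29 bases from the first base, 132880891, of the GENCODE transcript paired with NM_177303. For *Krt8* that distance is 140 bases, so that a part of its window lies in the first exon by GENCODE. The CCAAT box is in 33.8% and the TATA box in 12.4% of all windows. Of the 2 windows of *Gpm6a*, one holds the TATA box once, at position -211 from the start it is built on. That start lies at -115 from the first base of the paired GENCODE transcript, and that of the other window at -175409. GC content was 58% for *Krt8*, 60.4% for *Krt18* and 66% for *Krt7*, against a median of 52.4%. The windows are chr15:102004343-102004592 (minus strand), chr15:102027966-102028215 (plus strand) and chr15:101412153-101412402 (plus strand).
Krt8: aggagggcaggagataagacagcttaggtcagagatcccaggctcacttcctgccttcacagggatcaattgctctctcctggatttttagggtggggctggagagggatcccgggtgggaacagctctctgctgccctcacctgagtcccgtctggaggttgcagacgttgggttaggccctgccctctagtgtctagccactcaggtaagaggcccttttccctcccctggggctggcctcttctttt
Krt18: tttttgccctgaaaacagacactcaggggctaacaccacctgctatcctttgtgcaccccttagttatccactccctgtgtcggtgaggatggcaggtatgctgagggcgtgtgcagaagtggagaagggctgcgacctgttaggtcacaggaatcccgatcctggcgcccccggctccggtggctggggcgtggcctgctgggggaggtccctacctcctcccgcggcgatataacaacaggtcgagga
Krt7: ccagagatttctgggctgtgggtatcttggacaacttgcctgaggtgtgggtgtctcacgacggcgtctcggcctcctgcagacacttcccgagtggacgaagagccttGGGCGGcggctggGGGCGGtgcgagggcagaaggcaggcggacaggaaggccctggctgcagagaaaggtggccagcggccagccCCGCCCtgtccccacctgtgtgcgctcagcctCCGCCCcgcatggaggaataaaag

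The choice of transcript mattered for 1 gene. *Krt19*, on chromosome 11 from 100140810 to 100145926 on the minus strand, has 2 transcripts in the table. NM_008471, which was selected, has 7400 normalized counts, and NM_001313963 has 5924, or 80.1% of it. The second transcript of *Msln* has 99.2% of the mean of the first, and the 3 transcripts of *Gpm6a* lie between 149 and 153 normalized counts. The methods do not state how reads that lie in several transcripts of a gene were counted. These values may therefore not be separate levels of the transcripts. The other 7 genes have 1 transcript each in the table. By level per kb the order of the 10 genes was *Krt19*, *Krt18*, *Upk1b*, *Krt7*, *Msln*, *Upk3b*, *Wt1*, *Gpm6a*, *Lrrn4* and *Krt8*. Neighbours in this order differed by between 1.03 times, for *Msln* and *Upk3b*, and 6.1 times, for *Krt19* and *Krt18*. The places of *Krt7* and *Upk3b* are uncertain, since their lengths are from GENCODE transcripts that end beyond the RefSeq genes. Without values per library, it cannot be said which neighbours differ beyond the spread between libraries, and *Msln* and *Upk3b* trade places when levels are not divided by length.

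Other mesothelial genes were less uniform. Of a list of 10, 9 were found in the table, with a median of 52.5 per kb against 174 for the 10 members. *Pdpn*, which encodes podoplanin, has 4599 per kb, close to *Krt19*. *Tbx18*, which encodes a T-box factor, has 205 and *Aldh1a2*, which encodes an enzyme that makes retinoic acid, has 78.2 per kb. *Podxl*, *Rspo1*, *Cldn15* and *Bnc1* lie between 5.25 and 57.3 per kb. *Calb2*, which encodes the mesothelial marker calretinin, is listed at 0, and the mean of *Tcf21* is 0.34 normalized counts. *Muc16* was not analysed here. Thus 2 of these 9 genes lay at or above the median of all genes with reads, and 6 of the 10 members did.

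Markers of fibroblasts, the labelled cell type, were examined, and whether they separate fibroblasts from mesothelial cells was not tested. Of 14, 11 lay at or above the median of genes with reads, with 174860 per kb for *S100a4*, 150796 for *Vim* and 10396 for *Fn1*. *Lum* and *Fap* were near the bottom, at 1.33 and 3.22 normalized counts, and *Dcn*, at 144, also lay below the median. The median level of the list, 1193 per kb, was above that of the 10 mesothelial genes, and only *Krt19* exceeded this median among the 10.

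Markers of epithelia, which share keratins with mesothelium, had a median of 6.4 per kb. *Cldn3* had the highest level with 131, followed by *Esrp2* with 40.9 and *St14* with 26.8 per kb. *Cldn3* lay above *Wt1* per kb but below it without division by length (165 against 300.3 normalized counts). On both scales it lay above *Gpm6a*, *Lrrn4* and *Krt8* (153, 109 and 26.7 normalized counts) and below the members other than these and *Wt1*. *Esrp2*, with 145 normalized counts, lay above *Lrrn4* and *Krt8* on both scales. *St14* (87.3 normalized counts) and *Cdh1* (67.1 normalized counts, 15.1 per kb) also lay above *Krt8* (13.6 per kb) on both scales. The adhesion genes *Cdh1* and *Epcam* have means of 67.1 and 5.12 normalized counts, *Esrp1* is listed at 0 and *Grhl2* is at 0.159, the value of a single read. None of the 12 reached the median of genes with reads. Desmosomes and plakins anchor keratin filaments. The highest levels were those of *Plec* (2388 per kb), whose product also links other filaments, *Jup* (2106), whose product is also found at adherens junctions, and *Pkp2* (1039). *Dsp*, which encodes desmoplakin, has 6.03 and *Dsg2*, a desmosomal cadherin, 7.33 per kb, and *Dsg3* is listed at 0.

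Endothelial and macrophage markers were mostly low. Their medians were 1.3 and 1.2 per kb. *Kdr* has 499 per kb among 7 endothelial genes, with *Tek* (8.25) and *Vwf* (6.03) next and *Emcn* listed at 0. Among 6 macrophage genes *Cd68* has 209, *Csf1r* 10.4 and *Lyz2* 1.28 per kb. In cultures such as these, fewer cells of a type and less RNA per cell cannot be told apart, and the part of any other cell type in the levels of the 10 genes was not tested.

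**Figure D4:**
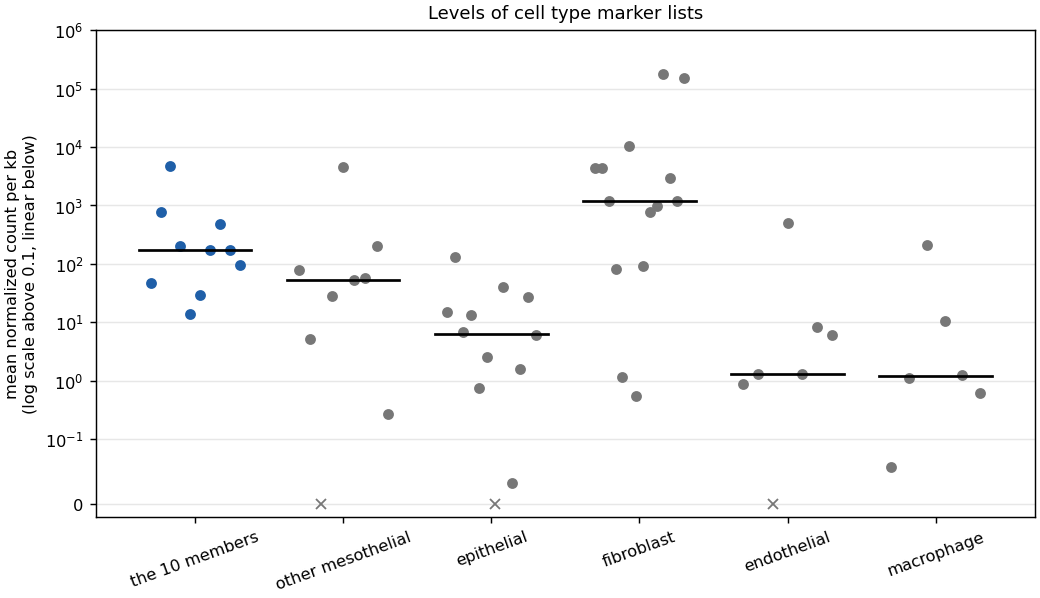
Level per kb of transcript of the 10 mesothelial genes (blue) and of 5 other lists (grey), averaged by the authors over the 6 libraries; bars are medians, crosses are genes listed at 0, and the axis is logarithmic above 0.1 and linear below. The median is 174 for the 10 genes, 52.5 for other mesothelial genes, 6.4 for epithelial, 1193 for fibroblast, 1.3 for endothelial and 1.2 for macrophage markers.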

How the data were processed

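RNA-Seq of 3 WT and 3 *Anp32e*-/- MEF libraries was examined through the single deposited table. Per the methods and labels, the authors used RNA-STAR for alignment to mm10, featureCounts of Subread for read counts per RefSeq transcript, and DESeq2. The signal used is the deposited column of mean counts over all 6 libraries, each scaled by its DESeq2 size factor by the authors. The other columns hold the authors' log2 fold change of *Anp32e*-/- over WT, its standard error, Wald statistic, p-value and adjusted p-value. As results of the authors' own comparison they were not used. One gene of the lists is not reported here. The planned edgeR quasi-likelihood test and its alternatives need counts per library and were not run, so no genotypes are compared and no test is reported.

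Accessions were matched to genes with RefSeq on GRCm38.p6, which placed 42198 of 42361 transcripts. Lengths came from GENCODE M21 on the same build, which gave one for 18742 of 19271 genes with reads and may differ from the RefSeq lengths. Where an accession is paired with several GENCODE transcripts, the longest was used. The lowest 6 distinct means, of 1 read in 1 library, gave size factors between 0.909 and 1.13 and the limits on read numbers. Total counts per library are unknown. Percentiles are shares of genes at or below a level.

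The members and lists were chosen with earlier results of these data known. From each list the 3 genes with the highest level per kb beside any member are named. *Mslnl*, the neighbour of *Msln*, was named outside this rule. Genes listed at 0 and *Podxl*, *Rspo1*, *Cldn15*, *Bnc1*, *Tcf21*, *Lum*, *Fap*, *Dcn*, *Cdh1*, *Epcam*, *Grhl2*, *Dsp*, *Dsg2*, *Krt1* and *Krt4* were named after their values were seen. Computations used Python 3.11.15, numpy 2.4.6 and pandas 2.3.3, with figures by matplotlib 3.10.9.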

Additional observations from a re-analysis of the deposited data

How the results depend on the processing

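Since the deposited means have no spread, any change in the third significant digit of a share, ratio or percentile was counted as a move. The median percentile of the 10 genes was 53.2 by the mean of the highest transcript. It was 52.9 with X and Y genes left out, 53.5 with the mean over a gene's transcripts, 52.4 per kb and 36.7 among genes with a mean of at least 10. Under that last choice, 2 of the 10 genes lay at or above the median in place of 6, since the median itself rises. All 10 genes had at least 10 and 7 at least 50 normalized counts per kb. Most genes with reads also reach both limits, as their median is 145 per kb. By level per kb, *Krt8* (13.6) lay at percentile 30.2 of genes with reads and *Gpm6a* (47.7) at percentile 39.4. The ratio of type II to type I keratins was 0.0432 with the mean over transcripts, 0.1005 without division by length and 0.28 without *Krt19*, an alternative added after the values were seen. The share of keratin level held by the 4 members was 98% with the mean over transcripts, 97.9% without division by length and 90.2% without *Krt19*. For *Upk1b* and *Upk3b*, the share of uroplakin level was 96.4% with the mean over transcripts and 98% without division by length.

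Leaving out replicates, DESeq2 size factors and other count filters were not run, because they need values per library. No paired analysis was possible because the table carries no replicate numbers and no value for a single library.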
